A study of Mus musculus with 24 samples.

Results

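The 33 genes described here encode the enzymes of cholesterol synthesis and of fatty acid synthesis, the proteins that sense and move sterols, and the enzymes that lengthen and desaturate fatty acids. They were taken from a list of gene names and matched to the gene name given in the deposited count table. All 33 were found among the 45237 genes of that table. Of these, 31 had enough counts to be tested, among 17097 genes tested in all, and Scd1 and Fads2 did not.

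The libraries are bulk RNA-seq of splenic NK cells, sorted by flow cytometry, from C57BL/6J mice with the WT genotype. Mice were injected intravenously with RMA cells, a lymphoma line of the T cell lineage that does not stimulate NK cells directly, or with RMA-KR cells, which do so strongly. The study reported activation and proliferation of NK cells in both tumor models. RMA-KR was made from RMA by knocking out B2m and adding the NKG2D ligand Rae1-β by lentivirus, and it is 1 clone obtained by limiting dilution. Both RMA and RMA-KR cells expressed ZsGreen. The comparisons ask how NK cells differ from those of untreated mice, at which day, and whether the tumors differ in this. The control group has 4 libraries from untreated mice. RMA has 3 early libraries (day 2), 3 intermediate (day 4) and 3 late (day 9). RMA-KR has 3 early libraries (day 2), 5 intermediate (day 7) and 3 late (day 14). Mice were female and 7 to 9 weeks old unless the study specified otherwise. The intermediate and late stages lie on different days in the RMA and RMA-KR courses, so day and tumor cannot be told apart there. The labels do not say whether each library came from a separate mouse, so errors and p-values measure the spread between these libraries.

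The libraries hold 5138651 to 14863500 counts each (median 10489204). Levels are given as normalized CPM, which are CPM after TMM scaling of the library totals. A floor of 3 counts corresponded to between 0.208 and 0.554 normalized CPM, and it covers counting error only. Libraries of the same group differed by much more than counting error, and for the 31 such pairs the chi-square per degree of freedom was 17.9 to 95.2. A gene was called at a fold change above 2 in either direction and a p, adjusted by Benjamini-Hochberg, under 0.05 in the quasi-likelihood test of edgeR.

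Some libraries stood apart from the rest. The median correlation of log2 values with all other libraries was 0.841 in RMA early 1, 0.855 in RMA early 2, 0.861 in RMA-KR early 1 and 0.869 in RMA-KR late 3. In the other 20 libraries it ran from 0.878 to 0.926. Members at or below 3 counts also gathered in the day 2 libraries. Of the tested members, 4 were that low in RMA early 1, 3 in RMA early 2, 2 in RMA-KR early 1, 3 in RMA-KR early 2 and 3 in RMA-KR early 3. Only control 1, RMA-KR late 1 and RMA-KR late 3 had another such member, 1 each. Single low values also occurred in genes that were well expressed elsewhere. Lss was at 0.534 normalized CPM in RMA early 1 and 3.08 in RMA-KR late 3, Cyp51 at 0.412 in RMA early 2, Srebf1 at 0.23 in RMA-KR early 2 and Fdft1 at 0.675 in RMA-KR late 3.

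The sorted cells carried the markers of NK cells. The 11 NK cell markers summed to between 20983 and 38377 normalized CPM in each library, with Gzma the most abundant by group median. The control medians were 3364 normalized CPM for Ncr1, 2062 for Klrb1c and 291 for Eomes. Markers of other cells were uneven. Control medians were 0 for Cd3e, Cd8a, C1qa and S100a8 and 0.05 for Ms4a1, but 11.02 for Cd163, 8.13 for Cd22, 7.67 for Trac, 5.06 for Ighd, 4.58 for Cd3d and 3.96 for Cd3g. The T cell list is the lineage of the RMA line, and its summed level ran from 422 to 801 normalized CPM, with Trbc1 at the top and present in controls at a median of 270. The B cell list summed to 213 to 526, almost all of it Ighm, and the plasma cell list to 47.3 to 285, led by Prdm1. The dendritic cell list summed to 391 to 1220, led by Itgax. The sum was at 391 to 672 in the controls, 786 to 920 in RMA intermediate and 802 to 928 in RMA-KR late, without overlap. In RMA late it was at 639 to 1008, which overlapped the controls. The group median of Itgax alone was 516 in the controls, 883 in RMA intermediate and 867 in RMA-KR late. Counted by gene, 3 of the 8 were higher than control and 5 lower in RMA intermediate (median log2 value -0.26). In RMA-KR late 4 were higher and 4 lower (0.08), and in RMA late also 4 and 4 (0.16). The part of dendritic cells in the differences of the lipid genes was not tested. Granulocyte markers summed to at most 12.4 and red blood cell markers to at most 3.83. Trbc1, Cd28, Lat, Ighm, Prdm1, Itgax and Cd68 were all detected in the control libraries.

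Acetyl-CoA is the common source of sterols and fatty acids. Cells join it into mevalonate and isoprenoid units, then into squalene, which is closed into lanosterol and trimmed stepwise to cholesterol, while a separate arm builds palmitate that is then lengthened and desaturated. The SREBP factors sit in the endoplasmic reticulum with SCAP and INSIG proteins and switch on the genes of both arms when sterol is scarce, and in activated lymphocytes lipid synthesis supplies membrane for growth and division.

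Levels between genes are compared per kb of exon length. In control NK cells the highest was Acly at 99.2 ± 13.4 normalized CPM per kb (SD, n = 4), the enzyme that makes cytosolic acetyl-CoA from citrate. Next came Elovl1 at 68.2 ± 16.1, Ebp at 49.4 ± 9.02 and Elovl5 at 40.6 ± 9.77 (SD, n = 4, per kb). Their order is not settled by the spread, since the intervals of neighbours overlap below Acly. Sqle was at 0.149 ± 0.0489 per kb in controls, above only Scd1 at 0.0697 and Fads2 at 0.0561. Scd1 was at or below 3 counts in 18 of the 24 libraries and Fads2 in 20, and neither was tested. The heat map of members shows each tested gene in each library.

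**Figure D1:**
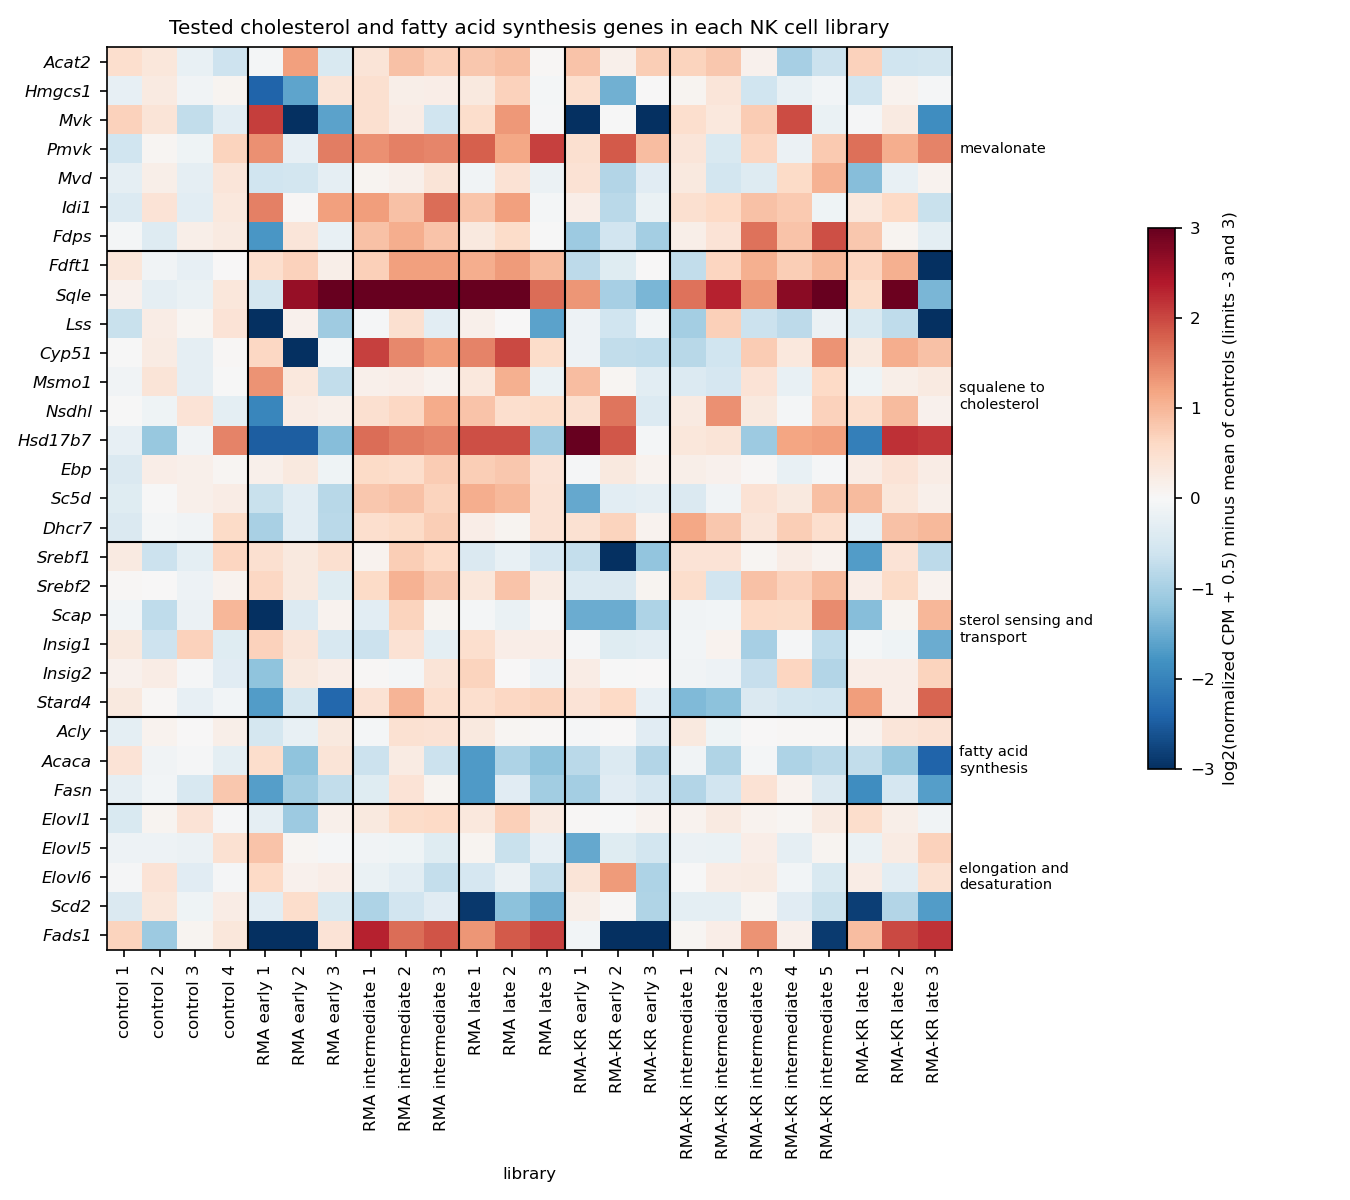
Each square gives log2(normalized CPM + 0.5) of a tested member (row, in order of role) in a library (column) minus the control mean, with the color scale limited to -3 and 3. Sqle is above the controls in all 3 RMA intermediate and all 3 RMA late libraries, Scd2 is below them in all 3 RMA late and all 3 RMA-KR late libraries, and dark single squares gather in the day 2 libraries.

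Against control, few members passed the test. In RMA early, edgeR called 0 of 31 members, where it called 0% of all genes. At an unadjusted p under 0.05, 6 members passed (7.04% of all genes), and DESeq2 called 0 with default settings (0.351% of all genes) and 0 with betaPrior (0.111%). In RMA intermediate, edgeR called 0 members against 1.65% of all genes. At an unadjusted p under 0.05, 6 passed, all higher (15.9% of all genes), and DESeq2 called 2 with default settings (3.63% of all genes) and with betaPrior (2.63%), Sqle and Pmvk. EdgeR also called 2 without the libraries that stand apart, Sqle and Cyp51, where the share of all genes is not given. In RMA late, edgeR called 1 member, which was lower, against 1.79% of all genes. At an unadjusted p under 0.05, 5 were higher and 3 lower (14% of all genes), and DESeq2 called 3 with default settings (3.52%) and with betaPrior (2.76%), Sqle, Pmvk and Scd2.

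In RMA-KR early, edgeR called 0 members against 0.0819% of all genes, with 4 at an unadjusted p under 0.05 (8.71% of all genes) and 0 in both settings of DESeq2 (0.866% and 0.532% of all genes). In RMA-KR intermediate, edgeR called 0 against 0.0175% of all genes, with 4 at an unadjusted p under 0.05 (5.91% of all genes) and 0 in both settings of DESeq2 (0.14% and 0.0877% of all genes). In RMA-KR late, edgeR called 1 member, again lower, against 0.983% of all genes, and 6 had an unadjusted p under 0.05 (14.2% of all genes). DESeq2 called 4 there with default settings (2.68% of all genes) and with betaPrior (1.88%), Pmvk, Fasn, Scd2 and Stard4. All 6 comparisons share the 4 control libraries, so they are not independent of each other.

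The direction over the members is read against all genes, whose median log2 fold change lay below 0 in several comparisons. It was -0.29 in RMA intermediate, -0.18 in RMA late and -0.18 in RMA-KR late. The number of genes with at least 1 count was 19370 to 27820 in the controls, 15289 to 18247 in RMA intermediate, 15263 to 24234 in RMA late and 16385 to 18509 in RMA-KR late, so it was lower than in every control in all RMA intermediate and RMA-KR late libraries. The part of this in the medians was not tested. The members' medians in those comparisons were 0.45, 0.41 and 0.26, with 24, 23 and 21 of the 31 above 0. At the other stages the medians were closer together. In RMA early the members' median was -0.11 against -0.06 for all genes, with 14 above 0. In RMA-KR early it was -0.19 against 0.00, with 12 above 0. In RMA-KR intermediate it was 0.14 against 0.01, with 20 above 0. Single libraries moved some of these medians by more than 1.5 times. The RMA early median was -0.26 without RMA early 3 and -0.02 without control 2, and the RMA-KR early median was -0.35 without RMA-KR early 1 and -0.10 without control 4. It was -0.38 without the libraries that stand apart. The RMA-KR intermediate median was 0.07 without RMA-KR intermediate 5, and the RMA-KR late median was 0.15 without control 1. A filter of at least 10 counts in every library, which keeps 21 members, gave 0.24 in RMA intermediate and 0.20 in RMA late.

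Acat2, Hmgcs1, Mvk, Pmvk, Mvd, Idi1 and Fdps carry acetyl-CoA to farnesyl diphosphate. Of these 7, edgeR called 0 in any comparison against control. Their median log2 fold change was 0.62 in RMA intermediate, with 6 of 7 higher, and 0.58 in RMA late, with 7 of 7 higher. It was 0.38 in RMA early, -0.19 in RMA-KR early, 0.29 in RMA-KR intermediate and -0.09 in RMA-KR late. The summed normalized CPM of the list was 101, 128, 94.6 and 118 in the controls, 155, 150 and 151 in RMA intermediate, and 155, 184 and 133 in RMA late. These 6 libraries all lay above the 4 controls. In RMA-KR late the sums were 104, 117 and 116, within the range of the controls.

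Pmvk, which encodes phosphomevalonate kinase and lies on chromosome 3 from 89454541 to 89469013 (mm10), had the smallest p-value among them in RMA intermediate and RMA late. It was at 5.73, 9.45, 8.22 and 14.5 normalized CPM in the controls, at 23.9, 26.5 and 25.6 in RMA intermediate and at 32.2, 20.6 and 39.1 in RMA late. In RMA-KR late it was at 29.2, 19.7 and 26.3. Each of these 9 libraries lay above all 4 controls. The RMA early values were 24, 7.53 and 27.2, the RMA-KR early values 12.8, 33.3 and 17.6, and the RMA-KR intermediate values 11.8, 6.39, 14.3, 7.96 and 15.8, so these groups overlapped the controls. EdgeR put the log2 difference at 1.69 (SE 0.46) in RMA late, with an adjusted p of 0.0504 by edgeR's quasi-likelihood test, just outside the threshold. It was 1.41 (SE 0.46, adjusted p = 0.129) in RMA intermediate and 1.40 (SE 0.46, adjusted p = 0.175) in RMA-KR late. The RMA late difference was called by DESeq2 (1.69, adjusted p = 0.00472) and by edgeR without the libraries that stand apart (1.69, adjusted p = 0.0219). Leaving out 1 library at a time, its adjusted p in RMA late ran from 0.0547 to 0.196.

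Hmgcs1, the cytosolic HMG-CoA synthase (chromosome 13, 119690379 to 119708260), had the highest normalized CPM of the list. Per kb of exon length Mvd was higher in the controls, at 13.3 against 12 for Hmgcs1. Its control values were 46.2, 66.1, 51.1 and 57.5 normalized CPM. It was at 76, 62.4 and 63 in RMA intermediate, 67.2, 88.3 and 52.2 in RMA late, 57.7, 70.4, 36, 46.9 and 51.4 in RMA-KR intermediate, and 36.1, 58.8 and 53.4 in RMA-KR late. All of these groups overlapped the controls. At day 2 the libraries disagreed, with 10, 18 and 71.5 in RMA early and 77.8, 19.8 and 55.1 in RMA-KR early. The RMA early log2 fold change was -0.74 (SE 0.47, adjusted p = 0.747 by edgeR's quasi-likelihood test). It was -1.94 (adjusted p = 0.044) without RMA early 3 and 0.36 without the libraries that stand apart, so its direction rested on which libraries were kept. Gm48342 covers 12.1% of its exons on the opposite strand. In Fdps 26.7% of the exons are covered by Gm43738 on the same strand. Of the 50-base windows of Acat2 39.1% are shared with other genes, most with Acat3, and of those of Idi1 25.3%, most with Gm13502, so counts of these genes are less certain.

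Promoter windows are shown because sterol-regulated genes carry short recurring letters there. RefSeq windows of 300 bases on GRCm38.p6, from 250 before to 50 after the start, were found for 26 of the 33 members, 35 windows in all. TCACNCCA, searched on both strands, was in 3 of the 35 windows (8.57%) and in 4.36% of all 32851 windows. CCAAT, also on both strands, was in 22 of the 35 (62.9%) and in 37.4% of all windows. In the list from squalene to cholesterol, 8 of 10 windows held CCAAT. The 2 windows below belong to the sterol genes described in full here that hold TCACNCCA, both on the plus strand, Srebf2 at chr15:82147019-82147318 and Hmgcs1 at chr13:119690101-119690400. Capitals mark matches to TCACNCCA and to CCAAT or its reverse complement ATTGG. A match is a description of letters and not a measured site.
Srebf2: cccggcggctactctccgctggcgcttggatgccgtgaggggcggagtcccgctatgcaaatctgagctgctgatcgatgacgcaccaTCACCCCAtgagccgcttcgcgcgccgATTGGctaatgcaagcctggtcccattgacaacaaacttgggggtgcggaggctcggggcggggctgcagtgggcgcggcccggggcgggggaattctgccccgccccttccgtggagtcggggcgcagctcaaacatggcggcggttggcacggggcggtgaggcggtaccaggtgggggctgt
Hmgcs1: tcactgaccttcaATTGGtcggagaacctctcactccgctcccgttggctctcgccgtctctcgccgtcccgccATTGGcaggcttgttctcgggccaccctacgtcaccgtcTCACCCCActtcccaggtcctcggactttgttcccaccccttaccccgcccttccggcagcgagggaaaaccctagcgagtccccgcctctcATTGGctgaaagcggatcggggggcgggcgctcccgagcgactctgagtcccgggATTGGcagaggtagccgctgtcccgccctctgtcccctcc

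The 10 enzymes from squalene to cholesterol are Fdft1, Sqle, Lss, Cyp51, Msmo1, Nsdhl, Hsd17b7, Ebp, Sc5d and Dhcr7. Against control edgeR called 0 of them in each of the 6 groups. In RMA intermediate all 10 had a log2 fold change above 0, with a median of 0.76, and 4 of them had an unadjusted p under 0.05 (15.9% of all genes). In RMA late 9 of 10 were above 0, with a median of 0.75, and 4 had an unadjusted p under 0.05 (14% of all genes). In RMA-KR late 9 of 10 were above 0 with a median of 0.53, and 1 had such a p (14.2% of all genes). In RMA-KR intermediate it was 8 of 10 with a median of 0.37, and 2 had such a p (5.91% of all genes). The day 2 medians were -0.27 in RMA and 0.17 in RMA-KR. In the same comparisons the median over all genes was at or below 0.01.

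The summed level of the list shows how the libraries separate. The controls were at 276, 369, 356 and 386 normalized CPM. RMA intermediate was at 570, 562 and 591 and RMA late at 594, 646 and 422. All 6 lay above every control, although RMA late 3 was the lowest by a wide margin. RMA-KR late was at 413, 507 and 403, also above every control, and RMA-KR intermediate at 367, 450, 407, 368 and 494, with libraries inside the control range. RMA early was at 318, 352 and 274 and RMA-KR early at 373, 431 and 317, so both day 2 groups overlapped the controls.

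**Figure D2:**
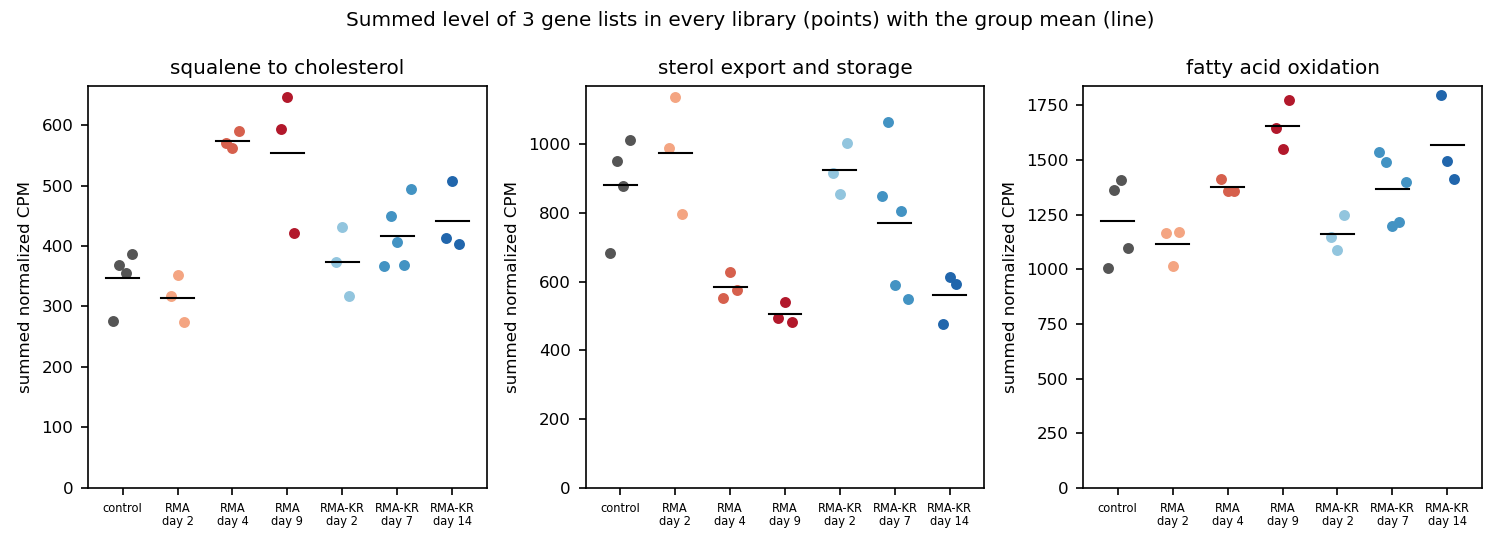
Points give the summed normalized CPM of 3 gene lists in each library and lines give group means. From squalene to cholesterol, RMA intermediate libraries sit at 562 to 591 and controls at 276 to 386, while sterol export and storage is at 553 to 628 and 682 to 1013.

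Sqle, squalene epoxidase (chromosome 15, 59315077 to 59331192), had the largest fold of this list against control in RMA intermediate and RMA late. It was at 0.924, 0.579, 0.632 and 1.2 normalized CPM in the controls, at 19, 14.4 and 27.9 in RMA intermediate and at 13.4, 30.1 and 3.68 in RMA late. All 6 RMA libraries of these stages lay above the controls. RMA-KR intermediate was at 3.54, 5.94, 2.75, 7.96 and 14, also above every control. RMA-KR late was spread from 0 to 9.49, with values of 1.42, 9.49 and 0. The day 2 values were 0.4, 7.53 and 13.2 in RMA and 2.78, 0.153 and 0 in RMA-KR. Those 3 groups overlapped the controls. EdgeR put the log2 difference at 4.61 (SE 1.37, adjusted p = 0.081) in RMA intermediate and 4.24 (SE 1.35, adjusted p = 0.107) in RMA late by edgeR's quasi-likelihood test. It was 3.04 (SE 1.23, adjusted p = 0.743) in RMA-KR intermediate. Without the libraries that stand apart both RMA differences were called (4.62, adjusted p = 0.00214, and 4.24, adjusted p = 0.00388), and DESeq2 called both as well. With betaPrior, which shrinks fold changes, it gave 1.57 in RMA intermediate and 1.38 in RMA late. Control values were close to the floor of 3 counts, so the size of the fold is poorly fixed.

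Ebp, the sterol isomerase (chromosome X, 8185329 to 8193512), showed smaller but tighter differences. The controls were at 83.7, 129, 126 and 118 normalized CPM, RMA intermediate at 168, 162 and 192 and RMA late at 189, 198 and 149. These 6 libraries lay above all controls. RMA-KR late, at 132, 150 and 132, lay just above them. RMA early (126, 137 and 103), RMA-KR early (109, 137 and 121) and RMA-KR intermediate (127, 123, 115, 96.2 and 109) overlapped the controls. EdgeR put the log2 difference at 0.65 (SE 0.17, adjusted p = 0.0387) in RMA late and 0.61 (SE 0.17, adjusted p = 0.0601) in RMA intermediate by edgeR's quasi-likelihood test. The RMA late difference passed the adjusted p but not the fold change of 2, and leaving out 1 library at a time its adjusted p ran from 0.0207 without RMA late 3 to 0.268 without RMA late 2. Without the libraries that stand apart it was 0.0585. In RMA-KR late it was 0.27 (SE 0.17, adjusted p = 0.456).

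Sc5d, which encodes lathosterol oxidase (chromosome 9, 42251595 to 42264256), was called between the early and late stages of RMA. The controls were at 39.9, 50.8, 56.4 and 59.4 normalized CPM. RMA early was at 31.8, 40.7 and 28.3, RMA intermediate at 90.2, 93.7 and 81.1 and RMA late at 109, 100 and 69.1. The intermediate and late RMA libraries lay above all controls and above all RMA early libraries. RMA-KR early was at 17.2, 40.7 and 42.5, RMA-KR intermediate at 37.8, 47.6, 69.5, 62.2 and 95.5, and RMA-KR late at 98.7, 65.1 and 57. Both of the last overlapped the controls. From RMA early to RMA late Sc5d rose by 1.47 on the log2 scale (SE 0.34, adjusted p = 0.0215 by edgeR's quasi-likelihood test). That call was lost without RMA early 1 (1.44, adjusted p = 0.101), RMA early 3 (1.36, 0.0568), RMA late 1 (1.39, 0.0997) or RMA late 2 (1.41, 0.0978), with only the groups compared (1.43, 0.133), and without the libraries that stand apart (1.73, 0.255). Against control the difference was 0.77 (SE 0.31, adjusted p = 0.247) in RMA intermediate and 0.85 (SE 0.31, adjusted p = 0.181) in RMA late.

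The other members of the list were less even. Cyp51, lanosterol demethylase, ran from 53.2 to 92 normalized CPM in RMA intermediate and from 18 to 26.3 in the controls, and the groups did not overlap (log2 fold change 1.63, SE 0.68, adjusted p = 0.264 by edgeR's quasi-likelihood test). Fdft1, squalene synthase, ran from 18.8 to 27.4 in RMA intermediate and from 9.48 to 14.4 in the controls. Ctsb covers 18.3% of the exons of Fdft1 on the opposite strand. Hsd17b7 was at 0 in RMA early 1 and 2 and at 24.7 in RMA-KR early 1. Lss was between 26.2 and 45.9 in RMA intermediate, inside the control range of 20.5 to 43.8 but for 1 library.

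**Figure D3:**
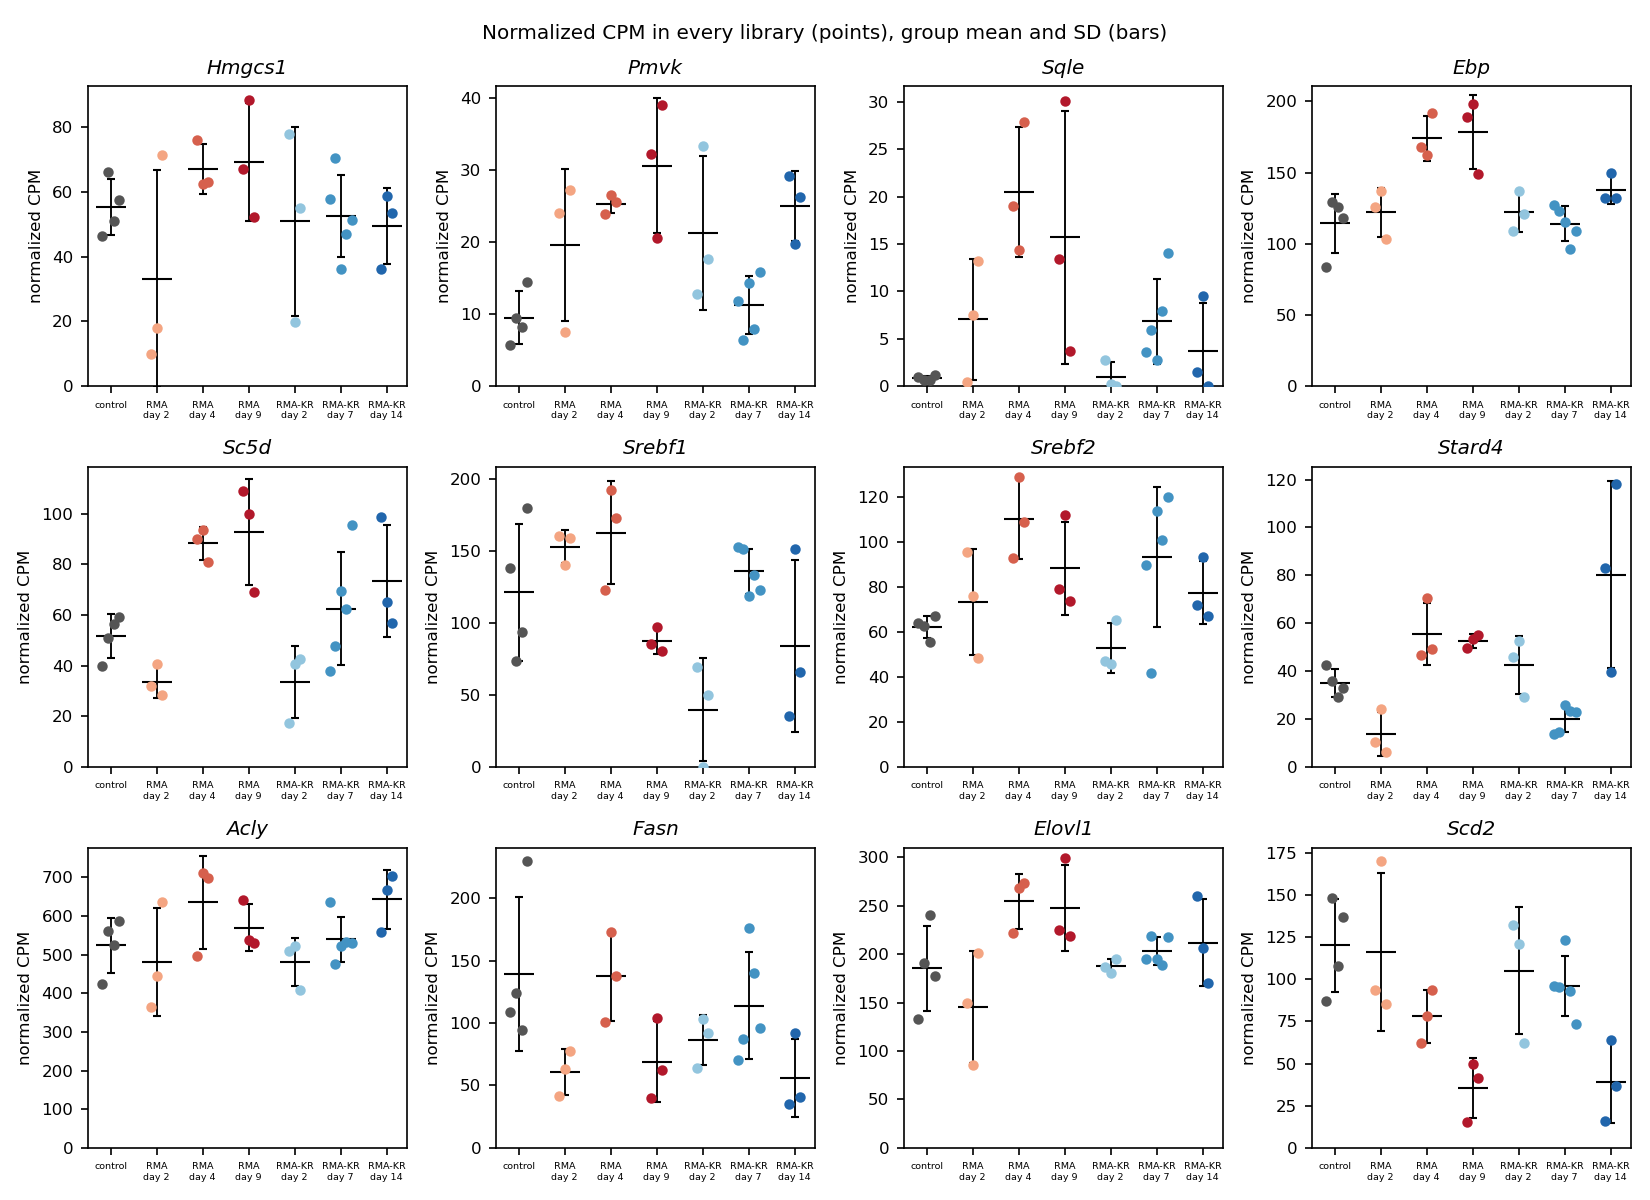
Each panel gives normalized CPM of a named member in every library (points), with the group mean and SD (bars). Pmvk, Sqle, Ebp and Sc5d sit above the controls in RMA at days 4 and 9, and Scd2 sits below them at day 9 of RMA and day 14 of RMA-KR.

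The 6 genes of sterol sensing and transport are Srebf1, Srebf2, Scap, Insig1, Insig2 and Stard4. Against control edgeR called 0 of them in each group. Their median log2 fold change was 0.03 in RMA early, 0.27 in RMA intermediate, 0.22 in RMA late, -0.29 in RMA-KR early, 0.01 in RMA-KR intermediate and 0.19 in RMA-KR late. Insig1, a retention protein that the SREBP factors themselves switch on, ran from 10.1 to 22.1 normalized CPM in RMA intermediate and from 10.3 to 26.3 in the controls. Those ranges overlapped almost completely.

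Srebf2, the factor of the sterol arm (chromosome 15, 82147181 to 82205379), was at 64.1, 62.5, 55.4 and 67.1 normalized CPM in the controls. It was at 93, 129 and 109 in RMA intermediate, 79, 112 and 74 in RMA late and 71.8, 93.4 and 67.3 in RMA-KR late, above every control in all 9 libraries. RMA early (95.4, 76.2 and 48.5), RMA-KR early (47, 45.8 and 65.5) and RMA-KR intermediate (90, 41.7, 114, 101 and 120) overlapped the controls. EdgeR put the log2 difference at 0.82 (SE 0.28, adjusted p = 0.153) in RMA intermediate and 0.50 (SE 0.28, adjusted p = 0.433) in RMA late by edgeR's quasi-likelihood test. RMA-KR late 3, which stands apart, had the lowest of the 9 values. Srebf1, the factor linked most to fatty acid genes (chromosome 11, 60199089 to 60222581), was more variable in controls, at 138, 73.2, 93.4 and 180. RMA early was at 160, 140 and 159, RMA intermediate at 123, 192 and 173, RMA late at 85.1, 97.4 and 80.2, and RMA-KR intermediate at 153, 151, 119, 133 and 123. RMA-KR early was at 69.1, 0.23 and 50.1, below every control, and RMA-KR late at 35.3, 151 and 65.7. The day 2 RMA-KR log2 fold change was -1.61 (SE 0.72, adjusted p = 0.554). It was -1.01 without RMA-KR early 2, -2.24 without RMA-KR early 1 and -2.26 without the libraries that stand apart. Without a filter on low counts it was -1.60 and called by edgeR (adjusted p = 0.00045). All other groups overlapped the controls.

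Stard4, which carries cholesterol between membranes (chromosome 18, 33199355 to 33213862), had the clearest stage pattern of the 6. The controls were at 42.7, 35.7, 29 and 32.9 normalized CPM. RMA early was at 10.5, 24 and 6.35, below every control, while RMA intermediate was at 46.7, 70.4 and 49.4 and RMA late at 49.5, 53.3 and 55.1, above every control. RMA-KR took another order, with 46.1, 52.5 and 29.1 early, 13.6, 14.5, 25.7, 23.4 and 22.9 at the intermediate stage and 83.2, 39.8 and 118 late. Its intermediate libraries lay below every control. From RMA early to RMA late Stard4 rose by 1.94 on the log2 scale (SE 0.43, adjusted p = 0.015 by edgeR's quasi-likelihood test). The call was lost without RMA early 1 (1.79, adjusted p = 0.0915) or RMA late 2 (1.93, 0.0624), with only the groups compared (1.90, 0.171), and without the libraries that stand apart (3.06, 0.0654), which leaves 1 RMA early library. RMA intermediate exceeded RMA-KR intermediate by 1.47 (SE 0.36, adjusted p = 0.0595), just outside the threshold, and without the libraries that stand apart that difference was called (1.48, adjusted p = 0.00936). In RMA-KR late against control it was higher by 1.20 on the log2 scale (SE 0.38, adjusted p = 0.153), and by 0.82 without the libraries that stand apart (adjusted p = 0.436). DESeq2 called it with default settings (1.22, adjusted p = 0.0476) and with betaPrior (1.02, 0.0438). At day 2, RMA was below RMA-KR by a log2 difference of -1.64 (SE 0.42, adjusted p = 0.108), which was called without RMA early 2 (-2.34, adjusted p = 0.0499) and was -2.70 (adjusted p = 0.0797) without the libraries that stand apart.

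Acly, Acaca and Fasn make palmitate from citrate. The median log2 fold change of the 3 was -1.01 in RMA late and -1.31 in RMA-KR late, and in both groups Acaca and Fasn were lower and Acly higher. It was -0.12 in RMA early, -0.02 in RMA intermediate, -0.69 in RMA-KR early and -0.29 in RMA-KR intermediate. EdgeR called 0 of 3 in each group, and at an unadjusted p under 0.05 Acaca and Fasn passed in both late groups (14% of all genes in RMA late and 14.2% in RMA-KR late).

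Fasn, fatty acid synthase (chromosome 11, 120805846 to 120824547), was at 109, 124, 94.3 and 230 normalized CPM in the controls. It was at 40.1, 104 and 62.8 in RMA late and at 35.4, 91.8 and 41.1 in RMA-KR late. RMA-KR late lay below every control, and RMA late overlapped them by 1 library. RMA early, at 41.2, 63.4 and 78, also lay below every control. RMA intermediate (101, 173 and 138), RMA-KR early (64.2, 103 and 92.3) and RMA-KR intermediate (70.7, 87.4, 176, 140 and 96) overlapped them. EdgeR put the log2 difference at -1.31 (SE 0.40, adjusted p = 0.132) in RMA-KR late, -1.01 (SE 0.40, adjusted p = 0.227) in RMA late and -1.20 (SE 0.40, adjusted p = 0.625) in RMA early by edgeR's quasi-likelihood test. Control 4 was the highest library of all, and without it the RMA-KR late value was -0.98. Without RMA-KR late 2 it was -1.83 and called (adjusted p = 0.0375), and DESeq2 called it in both of its settings. It was -1.12 (adjusted p = 0.369) without the libraries that stand apart, and the RMA early value was -0.85. Acaca, acetyl-CoA carboxylase, ran from 3.44 to 6.23 in RMA late and from 1.93 to 7.21 in RMA-KR late, below the control range of 10 to 16.6. Of its 50-base windows 30.4% are shared with other genes, most with Gm5182.

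Acly (chromosome 11, 100476353 to 100528000) was even across groups. The controls were at 424, 560, 525 and 586 normalized CPM, RMA early at 363, 445 and 635, RMA intermediate at 497, 710 and 698 and RMA late at 640, 538 and 530. RMA-KR was at 510, 521 and 408 early, 636, 475, 523, 532 and 530 at the intermediate stage and 558, 666 and 703 late. Every group overlapped the controls. The largest log2 fold change against control was 0.29 in RMA-KR late (SE 0.17, adjusted p = 0.431 by edgeR's quasi-likelihood test).

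Elongation and desaturation is the work of Elovl1, Elovl5, Elovl6, Scd1, Scd2, Fads1 and Fads2, of which 5 were tested. Their median log2 fold change was -0.05 in RMA early, -0.22 in RMA intermediate, -0.27 in RMA late, -0.19 in RMA-KR early, -0.02 in RMA-KR intermediate and 0.19 in RMA-KR late. The list holds the member called against control in both late groups, Scd2, and edgeR called 0 of the other 4.

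Scd2, the stearoyl-CoA desaturase expressed in these cells (chromosome 19, 44293674 to 44306864), was at 87.1, 148, 108 and 137 normalized CPM in the controls. It was at 15.5, 49.5 and 41.3 in RMA late and at 16.2, 63.7 and 36.6 in RMA-KR late. All 6 late libraries lay below every control, and also below the day 2 libraries of the same tumor with 1 exception. RMA early was at 93.7, 170 and 85, RMA intermediate at 62.1, 78.4 and 93.4, RMA-KR early at 132, 121 and 62.2, and RMA-KR intermediate at 96.2, 95.2, 123, 92.8 and 73.2. These groups overlapped the controls. In RMA late Scd2 fell by 1.76 on the log2 scale (SE 0.41, adjusted p = 0.018 by edgeR's quasi-likelihood test), lower in 3 of 3 libraries. That call was lost without control 4 (-1.72, adjusted p = 0.0507) and without RMA late 1 (-1.37, adjusted p = 0.153). In RMA-KR late it fell by 1.63 (SE 0.41, adjusted p = 0.0492).

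The RMA-KR late call of Scd2 rested on single libraries. It was lost without control 1 (adjusted p = 0.0587), control 2 (0.126), control 3 (0.0861), control 4 (0.123), RMA-KR late 1 (0.234) or RMA-KR late 3 (0.163), with log2 fold changes from -1.76 to -1.27. Without RMA-KR late 2 it was kept (-2.16, adjusted p = 0.0173). Without the libraries that stand apart the value was -1.58 with an adjusted p of 0.108 in RMA-KR late, and with only the groups compared it was -1.61 with 0.116. From RMA early to RMA late Scd2 fell by 1.71 (SE 0.43, adjusted p = 0.0322). This call was lost without RMA early 1 (-1.84, adjusted p = 0.0637), RMA early 2 (-1.33, 0.131), RMA late 1 (-1.30, 0.195) or RMA late 2 (-2.04, 0.0603), with only the groups compared (-1.76, 0.166), and without the libraries that stand apart (-1.25, 0.548). Its sequence is close to that of other Scd genes, but only 3.97% of its 50-base windows are shared with other genes. As in any bulk sample, fewer cells with a transcript and less of it per cell cannot be told apart.

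Elovl1, which lengthens saturated acyl chains (chromosome 4, 118428093 to 118432953), was at 133, 191, 240 and 178 normalized CPM in the controls. RMA intermediate was at 222, 268 and 274, RMA late at 225, 299 and 219, and RMA-KR late at 260, 206 and 170. RMA early was at 150, 85.2 and 201, RMA-KR early at 187, 181 and 195, and RMA-KR intermediate at 195, 219, 195, 189 and 218. Each group overlapped the controls, and the RMA intermediate log2 fold change was 0.45 (SE 0.22, adjusted p = 0.316 by edgeR's quasi-likelihood test). From RMA early to RMA late it was 0.77 (SE 0.24, adjusted p = 0.0825), and without RMA early 3 that difference was called (1.07, adjusted p = 0.0219). It was 0.50 without RMA early 2 and 0.31 (adjusted p = 0.841) without the libraries that stand apart. Fads1, the delta-5 desaturase, was at 0 in RMA early 1 and 2 and in RMA-KR early 2 and 3, and from 20.4 to 32.3 in RMA intermediate, 15.9 to 26.9 in RMA late and 11.9 to 28.9 in RMA-KR late against 2.6 to 9.98 in the controls. Those 9 libraries lay above every control, with log2 values of 1.93, 1.72 and 1.73 (SE 1.32, 1.31 and 1.31) and adjusted p of 0.465, 0.623 and 0.568 by edgeR. Elovl5 ran from 47.8 to 109 in RMA-KR early and from 124 to 194 in the controls, and Elovl6 from 28.8 to 40.8 in RMA intermediate and from 37.3 to 63.3 in the controls.

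**Figure D4:**
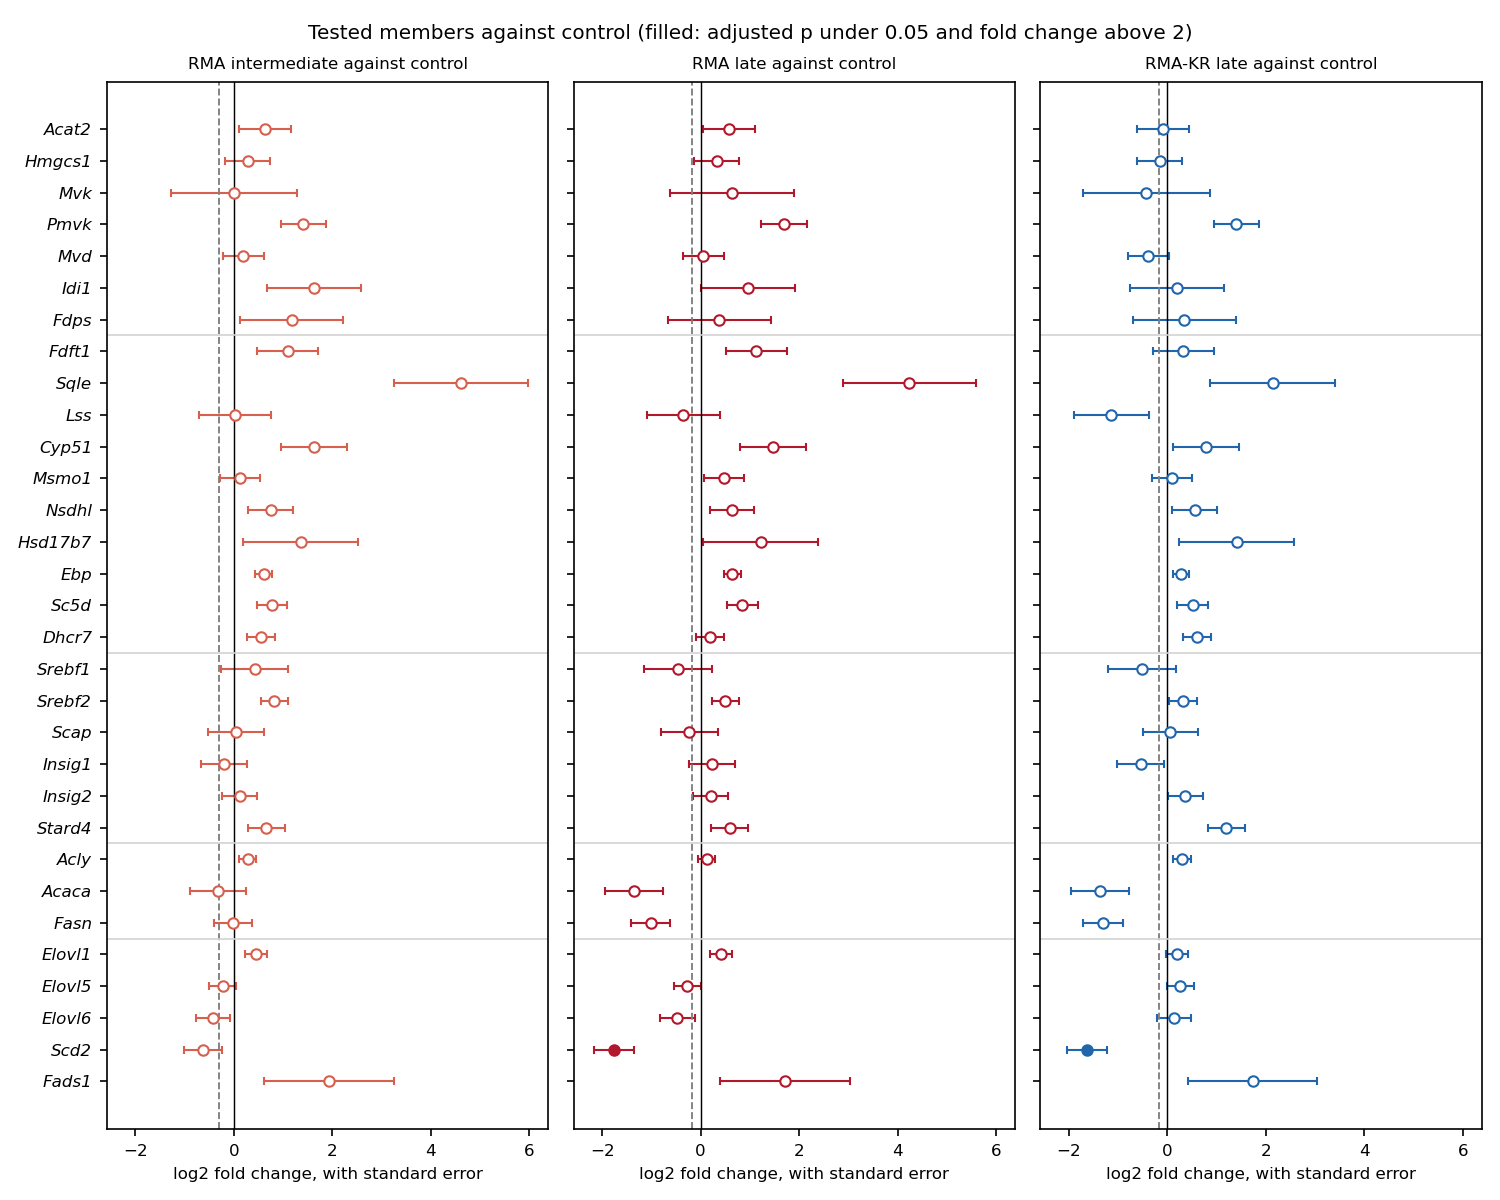
Points give the log2 fold change of each tested member in RMA intermediate, RMA late and RMA-KR late against control with its standard error, in order of role, filled where the member was called, with the median of all genes as a dashed line. Enzymes up to cholesterol lie mostly to the right, Acaca, Fasn and Scd2 to the left in both late groups, and Scd2 is the filled point at -1.76 in RMA late and -1.63 in RMA-KR late.

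RMA and RMA-KR were compared directly at each stage. Early, edgeR called 0 members against 0.304% of all genes, with 6 at an unadjusted p under 0.05 (12.3% of all genes), while DESeq2 called 4 with default settings (1.74% of all genes) and 2 with betaPrior (1.06%). Leaving out RMA early 3 gave 3 calls, Hmgcs1, Hsd17b7 and Elovl5, and leaving out RMA early 2 gave 1, Stard4. No share of all genes is given for those fits. With all libraries, the members' median was 0.01 against -0.03 for all genes, and it was 0.21 without RMA-KR early 1. At the intermediate stage edgeR called 0 members against 0.503% of all genes, with 3 at an unadjusted p under 0.05 (14.2% of all genes), and DESeq2 called 1 in both settings (1.78% and 1.02% of all genes), Stard4. The members' median was 0.27, with 23 of 31 higher in RMA, against -0.23 for all genes, and it ran from 0.17 without RMA intermediate 2 to 0.42 without RMA intermediate 1. Late, edgeR called 0 members against 0% of all genes, with 0 at an unadjusted p under 0.05 (7.31% of all genes) and 0 in both settings of DESeq2 (0.246% and 0.0585% of all genes). The members' median was 0.22 against 0.06 for all genes, from 0.02 without RMA late 2 to 0.39 without RMA-KR late 2.

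The late groups therefore gave no member that differed by the test. For Scd2 the log2 difference of RMA late from RMA-KR late was -0.13, with a 95% interval from -0.997 to 0.728, and for Pmvk it was 0.29, from -0.73 to 1.31. For Sqle it was 2.10, from -0.72 to 4.92, which covers large differences in one direction. Within each course, RMA late against RMA early gave 3 called members, 2 higher and 1 lower, where edgeR called 2.01% of all genes, and 10 had an unadjusted p under 0.05 (17.2% of all genes). DESeq2 called 5 with default settings (5.34%) and 4 with betaPrior (3.68%). The edgeR count was 0 without RMA early 1, 0 without RMA late 2, 1 without RMA late 1 and 6 without RMA early 3. No share of all genes is given for those fits, so these counts cannot be read against it. With all libraries, the members' median was 0.56 against -0.05 for all genes. RMA-KR late against RMA-KR early gave 0 against 0.322% of all genes, with 7 at an unadjusted p under 0.05 (15% of all genes), 3 with DESeq2's default settings (2.63%) and 1 with betaPrior (1.6%). The members' median was 0.24 against -0.10 for all genes, and it was 0.12 without RMA-KR late 2 and 0.37 without RMA-KR early 1. The test of whether the courses differ in the change from early to late called 0 members against 0% of all genes. There, 2 had an unadjusted p under 0.05 (10.4% of all genes) and DESeq2 called 1 in both settings (0.801% and 0.345% of all genes), Elovl5. The members' median of that difference was 0.15 against 0.12, from -0.09 without RMA late 2 to 0.32 without RMA early 1.

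**Figure D5:**
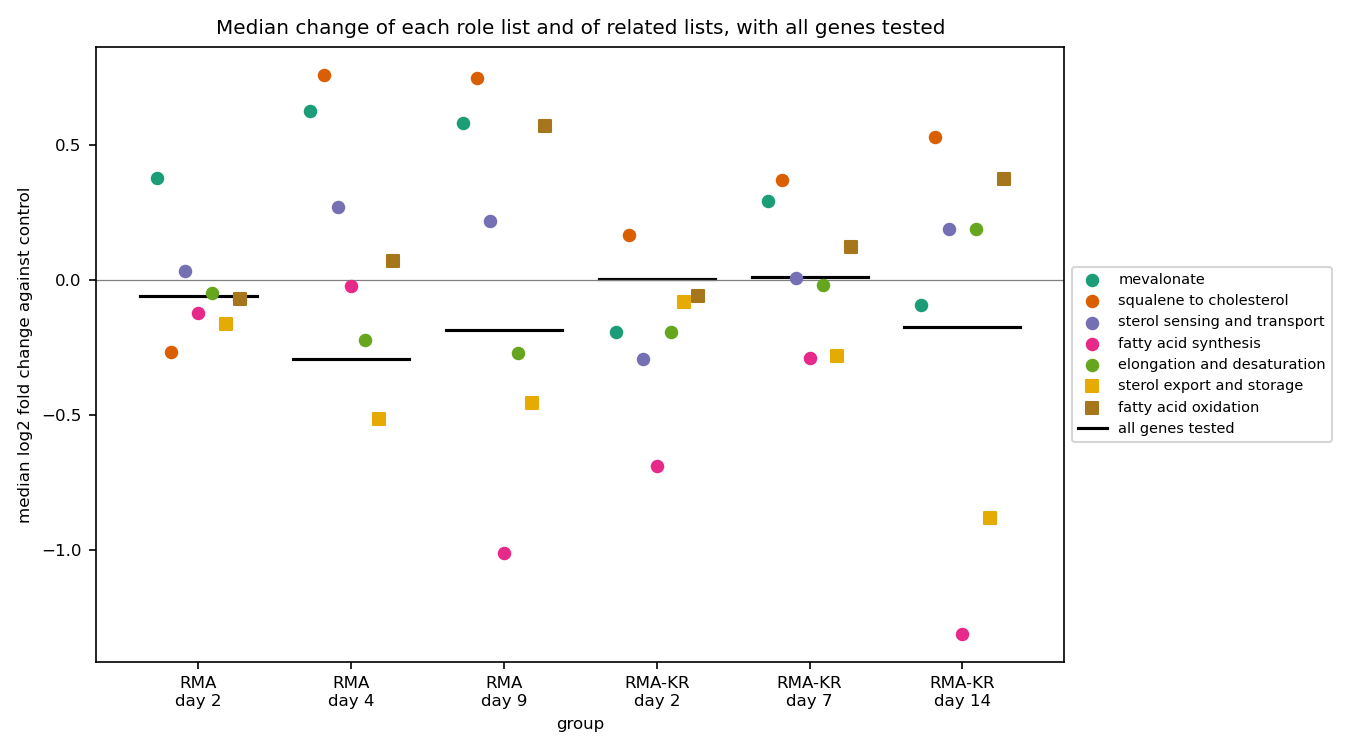
Points give the median log2 fold change of each list of genes against control at each stage and day, with bars for the median of all genes tested. The lists from mevalonate to cholesterol lie above that bar at days 4 and 9 of RMA, and fatty acid synthesis and sterol export and storage lie below it at day 9 of RMA and day 14 of RMA-KR.

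The list of sterol export and storage holds 10 genes, Abca1, Abcg1, Mylip, Nr1h2, Nr1h3, Soat1, Soat2, Ch25h, Lipa and Nceh1, and all 10 were tested. Their median log2 fold change was -0.52 in RMA intermediate, with 1 of 10 higher, -0.46 in RMA late, with 2 of 10 higher, and -0.88 in RMA-KR late, with 0 of 10 higher. It was -0.16 in RMA early, -0.08 in RMA-KR early and -0.28 in RMA-KR intermediate. EdgeR called 1 of the 10 lower in RMA intermediate, 2 in RMA late and 1 in RMA-KR late, against 1.65%, 1.79% and 0.983% of all genes. The summed level was 682, 950, 879 and 1013 normalized CPM in the controls, 553, 628 and 575 in RMA intermediate, 494, 540 and 482 in RMA late and 478, 614 and 593 in RMA-KR late. All 9 libraries lay below every control. Mylip is part of this sum, although it acts on lipoprotein receptors and not on export or storage.

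Mylip encodes the ubiquitin ligase that removes lipoprotein receptors when sterol is abundant. It was at 188, 277, 222 and 338 normalized CPM in the controls, 102, 94.6 and 92.4 in RMA intermediate, 45, 76.6 and 57.4 in RMA late and 76.8, 78.7 and 137 in RMA-KR late. These 9 libraries lay below every control. By edgeR's quasi-likelihood test it fell by 1.41 on the log2 scale in RMA intermediate (SE 0.28, adjusted p = 0.00576), by 2.10 in RMA late (SE 0.28, adjusted p = 0.000289) and, as a log2 fold change of -1.39, in RMA-KR late (SE 0.28, adjusted p = 0.0113). The last call was lost without RMA-KR late 1 (-1.26, adjusted p = 0.0822) or RMA-KR late 2 (-1.23, adjusted p = 0.0696), and with only the groups compared (-1.38, adjusted p = 0.0612), and kept without the libraries that stand apart (-1.71, 0.00261). Abcg1, a sterol exporter, was at 148, 234, 162 and 227 in the controls and at 67.6, 99.1 and 52.9 in RMA late, below every control. It fell by 1.40 there (SE 0.28, adjusted p = 0.00633), and without RMA late 1 the adjusted p was 0.0507 (-1.31). From RMA early to RMA late the log2 difference was -1.84 (adjusted p = 0.0021), not called with only the groups compared (-1.88, 0.0901). RMA-KR early lay above every control (0.94, adjusted p = 0.234). RMA-KR late lay below every control but was not called (-0.66, adjusted p = 0.318). In RMA-KR it went from 357, 377 and 381 early to 89.3, 133 and 145 late, with no overlap, and fell by 1.60 (SE 0.30, adjusted p = 0.0186). That call was lost without RMA-KR early 2 (-1.56, adjusted p = 0.0625) or RMA-KR late 1 (-1.42, adjusted p = 0.0628), lost with only the groups compared (-1.62, adjusted p = 0.148), and kept without the libraries that stand apart (-1.76, 0.0465).

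All 17 genes of the fatty acid oxidation list were tested, and edgeR called 1 of them in each late group, where it called 1.79% of all genes in RMA late and 0.983% in RMA-KR late. With an unadjusted p under 0.05, 8 were higher and 0 lower in RMA late (14% of all genes), and 6 higher and 0 lower in RMA-KR late (14.2% of all genes). The median log2 fold change was 0.57 in RMA late, with 15 of 17 higher, and 0.37 in RMA-KR late, with 13 of 17 higher. It was -0.07 in RMA early, 0.07 in RMA intermediate, -0.06 in RMA-KR early and 0.12 in RMA-KR intermediate. The called gene was Etfb, a subunit of the electron transfer flavoprotein. It was at 19, 24.4, 28.4 and 22 normalized CPM in the controls, at 63.4, 55 and 47.2 in RMA late and at 55.6, 49.8 and 41.4 in RMA-KR late. All 6 late libraries lay above every control. By edgeR's quasi-likelihood test it rose by 1.23 on the log2 scale in RMA late (SE 0.25, adjusted p = 0.00701) and by 1.06 in RMA-KR late (SE 0.25, adjusted p = 0.0368). The RMA late call was lost without RMA late 1 (1.15, adjusted p = 0.0814) or RMA late 2 (1.26, adjusted p = 0.0546). The RMA-KR late call was lost when any library but RMA-KR late 3 was left out, that is without control 1 (0.97, adjusted p = 0.105), control 2 (1.07, 0.0898), control 3 (1.157, 0.054), control 4 (1.02, 0.109), RMA-KR late 1 (0.95, 0.222) or RMA-KR late 2 (1.08, 0.116). It was also lost with a replicate block (1.06, adjusted p = 0.115), without a filter on low counts (1.07, 0.422) and with only the groups compared (1.07, 0.101), and kept without the libraries that stand apart (1.17, 0.034). Without a filter the RMA late call was lost as well (1.24, adjusted p = 0.259).

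Of 14 genes for further sterol and isoprenoid steps, 13 were tested, and their median was 0.26 in RMA intermediate, 0.28 in RMA late and 0.33 in RMA-KR late. Of the 9 genes that process or hold SREBP, the medians were -0.25, -0.16 and -0.43 in those groups. Of 22 genes for fatty acid supply, activation and elongation, 19 were tested, with medians of 0.15, -0.17 and 0.08. EdgeR called 0 genes of these 3 lists in each of the 3 comparisons. At an unadjusted p under 0.05, the sterol and isoprenoid list had 3, 2 and 0 genes, the SREBP list 0, 0 and 1, and the fatty acid supply list 4, 2 and 5, where 15.9%, 14% and 14.2% of all genes passed.

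Cell division genes are given beside the lipid genes. Among 25 S and G2/M phase genes, edgeR called 22 higher in RMA intermediate, 18 in RMA late and 15 in RMA-KR late (1.65%, 1.79% and 0.983% of all genes), with medians of 3.66, 3.65 and 3.27. In RMA-KR intermediate it called 0, with a median of 0.72 and 5 at an unadjusted p under 0.05 (5.91% of all genes), and at day 2 it called 0 in both tumors, with medians of 0.89 in RMA and 0.83 in RMA-KR. At an unadjusted p under 0.05, 8 were higher in RMA early (7.04% of all genes), and 7 were higher and 1 lower in RMA-KR early (8.71% of all genes). Plk1, a mitotic kinase, was at 13.7, 1.83, 4.42 and 3.21 normalized CPM in the controls, at 122, 156 and 149 in RMA intermediate and at 95.5, 136 and 51.3 in RMA-KR late. Both groups lay far above the controls. The summed level of these genes was 3340 to 6763 in RMA-KR late and 5873 to 8711 in RMA intermediate. The part of cell division in the differences of the lipid genes was not tested.

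Medians of some markers of other cells differed between groups. In RMA-KR late the median was 13.78 for Jchain (control 0.58) and 16.58 for Cd79b (control 1.94), while the B cell list had 5 genes higher and 5 lower and its median log2 value was -0.18. The plasma cell list, which holds Jchain, had 3 tested genes higher and 1 lower there, with a median log2 value of 1.97. Its sum was 172 to 268 normalized CPM in RMA-KR late, 187 to 285 in RMA-KR early and 108 to 164 in the controls. In RMA-KR intermediate the median was 48.52 for Cd74 (control 1.61), 14.14 for H2-Aa (control 0.33), 33.67 for Cd22 (control 8.13), 20.99 for Cd3d (control 4.58) and 18.95 for Cd3g (control 3.96). There the T cell list had 5 genes higher and 5 lower, with a median log2 value of 0.04. The B cell list had 6 higher and 4 lower (0.12), and the dendritic cell list 7 higher and 1 lower (1.29). Cd3g was at 14.7 in RMA late, where the T cell list had a median of 0.44, with 2 genes higher and 1 lower at an unadjusted p under 0.05 (14% of all genes). The part of RMA or T cells in these values was not tested. The macrophage and monocyte list of 11 genes, 5 of them tested, summed to 21.7 to 30 normalized CPM in the controls, 37.6 to 54.7 in RMA late and 39.6 to 83.7 in RMA-KR late, and Cd68 had the highest median of the list in both late groups. Its 5 tested genes had a median log2 value of 0.91 in RMA late and 2.38 in RMA-KR late. C1qa, C1qb and Cd14 had a median of 0 in every group, while that of Lyz2 was 0.13 in control, 5.5 in RMA late, 7.4 in RMA-KR early and 0.53 in RMA-KR late, and that of Ms4a7 was 0.05 in control and 0.86 in RMA late. For Cd163 it was 11.02 in control, 2.42 in RMA late and 3.29 in RMA-KR late, and for Cd68 10.01, 28.12 and 59.38. RMA early summed to 31.2 to 62.4, RMA-KR early to 33.8 to 52.4, RMA intermediate to 16.6 to 23.2 and RMA-KR intermediate to 11.5 to 44.4. The part of these cells in the late differences was not tested. The NK cell sum was 32313 to 38377 in RMA late and 24814 to 32309 in RMA-KR late, and the median of Gzma alone was 9215 in control and 16390 in RMA late. The NK cell list had a median log2 fold change of -0.27 in RMA intermediate, with 2 of 11 higher and 5 lower at an unadjusted p under 0.05 (15.9% of all genes) and 0 called by edgeR. It was -0.09 in RMA late and -0.24 in RMA-KR late, with 0 of 11 called by edgeR in both. With an unadjusted p under 0.05, 2 were higher and 2 lower in RMA late (14% of all genes), and 0 higher and 4 lower in RMA-KR late (14.2% of all genes).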

How the data were processed

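The counts per gene are those the authors deposited, made with cutadapt 1.10, Bowtie2 2.2.8, STAR 2.5.3a and HTSeq 0.6.1p1 on mm10. Whether counting used the strand is not stated. Of the table, the 24 raw count columns were used, and the authors' own comparisons were not. Genes were filtered with filterByExpr over the 7 groups, scaled by TMM and tested with edgeR 4.0.16's quasi-likelihood test (robust) with Benjamini-Hochberg adjustment, under R 4.3.3. Fold changes used the default prior count of edgeR, and the log2 CPM behind the correlations between libraries used a prior count of 2. DESeq2 1.42.0 served some of the alternatives, and the others used edgeR. Genes are described in full if called, among the smallest p-values against control, or the highest of their role in normalized CPM. The members and lists were chosen with earlier results from these data known. Alternatives were other tests, filters and scaling, a replicate block, only the groups compared, leaving out 1 library, and leaving out the libraries that stand apart, the last chosen after seeing the data. The level of 1 marker gene is not reported here.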

Additional observations from a re-analysis of the deposited data

How the results depend on the processing

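Members called by edgeR are compared with the counts under other choices. The share of all genes called is given above for the main edgeR test and both settings of DESeq2 only. Counts under the other choices, and with 1 library left out, therefore cannot be read against that share. With default DESeq2 the count was 2 in RMA intermediate, 3 in RMA late, 0 in RMA early, RMA-KR early and RMA-KR intermediate, and 4 in RMA-KR late. It was 4 for RMA early against RMA-KR early, 1 for RMA intermediate against RMA-KR intermediate, 5 for RMA late against RMA early, 3 for RMA-KR late against RMA-KR early and 1 for the difference between the courses. With betaPrior these counts were 2, 3 and 4 in RMA intermediate, RMA late and RMA-KR late, 2 and 1 in the early and intermediate comparisons of the tumors, 4 and 1 from early to late in RMA and RMA-KR, and 1 for the difference between the courses. Without a filter on low counts they were 2 in RMA intermediate, 2 in RMA late, 1 in RMA-KR early, 2 in RMA-KR late, 2 early and 1 at the intermediate stage between tumors, 6 and 3 from early to late, and 1 for the difference. With at least 10 counts in every library, RMA late had 2, RMA late against RMA early 4 and the intermediate comparison of the tumors 1.

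With DESeq2's size factors RMA late had 2. With only the groups compared, RMA intermediate had 5, RMA late 4, the intermediate comparison of the tumors 1, and RMA-KR late and RMA late against RMA early 0 each. Without the libraries that stand apart, RMA intermediate had 2, RMA late 3, RMA-KR early 1, RMA early against RMA-KR early 1, the intermediate comparison of the tumors 1, RMA-KR late against RMA-KR early 1, and RMA-KR late and RMA late against RMA early 0 each. That setting leaves 1 library in RMA early, which is assumed to vary like the others. By adjusted p alone RMA late had 2. The cause of these differences was not tested.

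The members' median moved with at least 10 counts in every library, which keeps fewer members, to 0.24 in RMA intermediate, 0.20 in RMA late and 0.26 in RMA late against RMA early. It moved with betaPrior, which shrinks fold changes, to 0.25 in RMA late and 0.34 in RMA late against RMA early. Over the alternatives other than leaving out 1 library, it ran from 0.043 to 0.17 in RMA-KR intermediate and from -0.09 to 0.12 in RMA early against RMA-KR early. Without the libraries that stand apart it was -0.38 in RMA-KR early and 0.016 in the difference between the courses (0.15 with all libraries). The sign of Hmgcs1 turned without those libraries, to 0.36 in RMA early, 0.92 in RMA early against RMA-KR early and -0.0357 in RMA late against RMA early. No named value changed sign with DESeq2's size factors. The cause was not tested.

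Leaving out 1 library, the count of members called ran from 0 to 1 in RMA early (1 without RMA early 3), 0 to 1 in RMA late, 0 to 2 in RMA-KR late (2 without RMA-KR late 2), 0 to 3 in RMA early against RMA-KR early and 0 to 6 in RMA late against RMA early. The members' median ran from -0.35 to -0.10 in RMA-KR early, -0.0077 to 0.21 in RMA early against RMA-KR early, 0.015 to 0.39 in RMA late against RMA-KR late, 0.38 to 0.54 in RMA late against RMA early and -0.089 to 0.32 in the difference between the courses. Fads1 turned in RMA early against RMA-KR early, to -7.29 without RMA early 3, -0.04 without RMA-KR early 2 and -0.03 without RMA-KR early 3, over a range up to 7.83, with 4 of those 6 libraries at 0.

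Over the named genes, 516 values under the other choices kept their direction and side of the threshold, 67 passed it newly, 26 no longer passed and 3 turned. Leaving out 1 library, 491 kept both, 10 passed newly, 40 no longer passed and 3 turned. Libraries with the same replicate number were no more alike than others, with 3 of 64 pairs above a correlation of 0.1 and a median of -0.00711, so they share only a number, and a replicate block changed no count of members called.

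Genes near the floor of 3 counts, among them Sqle, Fads1, Hsd17b7, Mvk and Fdps, have day 2 values at or below 3 counts. The RMA-KR early libraries hold 10451413 to 12900199 counts, and Fads1 is at 0 in 2 of them while the controls, with 5138651 to 10562991 counts, are at 2.6 to 9.98. The cause was not tested.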
